A study of Homo sapiens with 16 samples.

Results

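The genes described here were the 49 entries of the deposited expression table whose symbol starts with PSMA to PSMG followed by a number, out of 17552 genes with values. They comprised 48 genes of the proteasome and 1 other gene, PSMC3IP, a meiotic recombination factor that shares the first letters of PSMC3. By role the 48 were 8 alpha and 7 constitutive beta subunits of the 20S core, 4 inducible or tissue-specific beta subunits, 6 ATPases and 11 other subunits of the 19S cap, 5 genes of activators and an inhibitor, and 7 assembly chaperones. A mean of at least 1 FPKM (fragments per kilobase of transcript, scaled to the mapped fragments of the library) over the 16 libraries was reached by 47 of the 49, which entered the tests. The 2 others were PSMA8, an alpha subunit of the testis, and PSMB11, a beta subunit of the thymus. PSMA8 stood at 0.63 and 0.80 FPKM in the untreated oeWDR76 libraries and was listed at 0 in the siNS libraries, and PSMB11 did not pass 0.06 FPKM in any library.

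The proteasome is the protease that degrades most ubiquitin-tagged proteins of the cell. Its core is a barrel of alpha and beta rings with the proteolytic sites inside, and the 19S cap binds, deubiquitinates, unfolds and threads substrates into it. Interferons switch on the inducible catalytic subunits PSMB8, PSMB9 and PSMB10, which take the places of PSMB5, PSMB6 and PSMB7 in newly built cores, giving the immunoproteasome that supplies peptides for class I antigen presentation. Dedicated chaperones build the core and the cap, and the transcription factor NFE2L1 raises many subunit genes together when proteolysis is insufficient.

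The RNA came from HT-1080, an established human fibrosarcoma line used to study ferroptosis, an iron-dependent form of cell death. Cells carried siRNAs against both DCAF8 and LSH (siDCAF8+siLSH), an siRNA against DCAF8 alone (siDCAF8), overexpressed WDR76 (oeWDR76) or a control siRNA (siNS), each with erastin at 10 µM for 24 h, a blocker of cystine uptake, or without it. DCAF8 and WDR76 are WD40-repeat proteins that serve as substrate receptors of ubiquitin ligases, and LSH, encoded by HELLS, is a chromatin remodeler. Each of the 8 groups had 2 libraries, no empty-vector library accompanied oeWDR76, and no source used here says how many siRNAs each target received. Nothing says that the 2 libraries of a group were grown separately, so a p-value here reflects the spread between these libraries alone.

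Across the whole table, library totals ran from 436290 to 503867 FPKM, with the 4 oeWDR76 libraries at 495857 or above and the other 12 at 455662 or below. GC-rich genes stood relatively high in oeWDR76, with slopes of 0.19 to 0.23 log2 for each 10% of GC content, against -0.16 to 0.03 in the other libraries. DCAF8 was at 17.4 and 14.3 FPKM in siDCAF8+siLSH and 11.8 and 12.2 FPKM in siDCAF8, against 38.9 and 40.4 FPKM in siNS. WDR76 was at 268 and 267 FPKM in oeWDR76, against 3.52 and 2.89 FPKM in siNS. HELLS was at 4.05 and 4.07 FPKM in siDCAF8+siLSH, below the 6.83 and 7.45 FPKM of siDCAF8 but level with the 4.05 and 3.98 FPKM of siNS. In siDCAF8+siLSH/Erastin it was at 2.12 and 2.36 FPKM. That was below the 5.85 and 5.89 FPKM of siDCAF8/Erastin and the 3.6 and 3.37 FPKM of siNS/Erastin. Of 7 mesenchymal marker genes none fell below 111 FPKM, while the summed level of 5 epithelial markers stayed at 1.28 to 6.18 FPKM and that of 5 leukocyte markers at 5.21 to 8.08 FPKM.

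The starts of the interferon-inducible members are shown first, because PSMB9 among them had the widest span of all members. Interferon-regulated promoters often hold an interferon-stimulated response element, searched here as GAAANNGAAA on both strands within 250 bases before to 50 bases after each start, in RefSeq promoters of GRCh38.p14. These letters occurred in 7 of the 43 members with a promoter sequence (16.3%), against 4.38% of 27305 genes. The 7 were PSMB8, PSMB10, PSME1, PSME2, PSMA4, PSMB4 and PSMG4. PSMB9 had no match in its own window, but it shares a head-to-head promoter with the peptide transporter gene TAP1, whose start lies 488 bases away, and the TAP1 window held 2 overlapping matches between the starts. The antioxidant-type letters TGACNNNGC were in 34.9% of members and 16.1% of genes, the letters TTCNNNGAA in 18.6% and 9.38%, and CCAAT in 48.8% and 39.7%. A match is a description of the letters and shows no binding. The stretches below run 5′ to 3′ on the strand of each gene, with the response element letters in capitals. They lie at chr6:32844018-32844091 on the minus strand (PSMB8), chr6:32853789-32853878 on the minus strand (TAP1), chr16:67936822-67936911 on the minus strand (PSMB10), chr14:24136159-24136223 on the plus strand (PSME1) and chr14:24146589-24146678 on the minus strand (PSME2).
PSMB8: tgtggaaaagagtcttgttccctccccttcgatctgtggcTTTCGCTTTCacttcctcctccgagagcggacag
TAP1: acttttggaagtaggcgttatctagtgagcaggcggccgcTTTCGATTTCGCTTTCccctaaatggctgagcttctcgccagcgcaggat
PSMB10: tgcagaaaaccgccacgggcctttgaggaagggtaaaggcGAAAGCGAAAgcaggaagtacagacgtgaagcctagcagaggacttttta
PSME1: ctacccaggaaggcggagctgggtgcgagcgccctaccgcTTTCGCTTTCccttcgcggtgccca
PSME2: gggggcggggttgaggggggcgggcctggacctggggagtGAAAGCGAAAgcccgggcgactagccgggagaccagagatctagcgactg

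The tested members were abundant and differed widely in how far they varied. Their mean level over the libraries ran from 9.87 to 276 FPKM with a median of 91.5 FPKM, against a median of 12.7 FPKM over the 11260 genes tested. The means of the 8 groups spanned less than 1.5-fold for 21 members and at least 2-fold for 14. The steadiest was the catalytic beta subunit PSMB7, whose group means ran from 218 FPKM in siDCAF8 to 249 FPKM in siNS, a ratio of 1.14. The widest was its inducible relative PSMB9, at 4.81 FPKM in siDCAF8+siLSH and 38.5 FPKM in oeWDR76, a ratio of 8.02. After PSMB9 came PSMC3IP with a ratio of 3.24, the cap chaperone PSMD10 with 3.03 and the inducible beta subunit PSMB8 with 2.84.

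**Figure D1:**
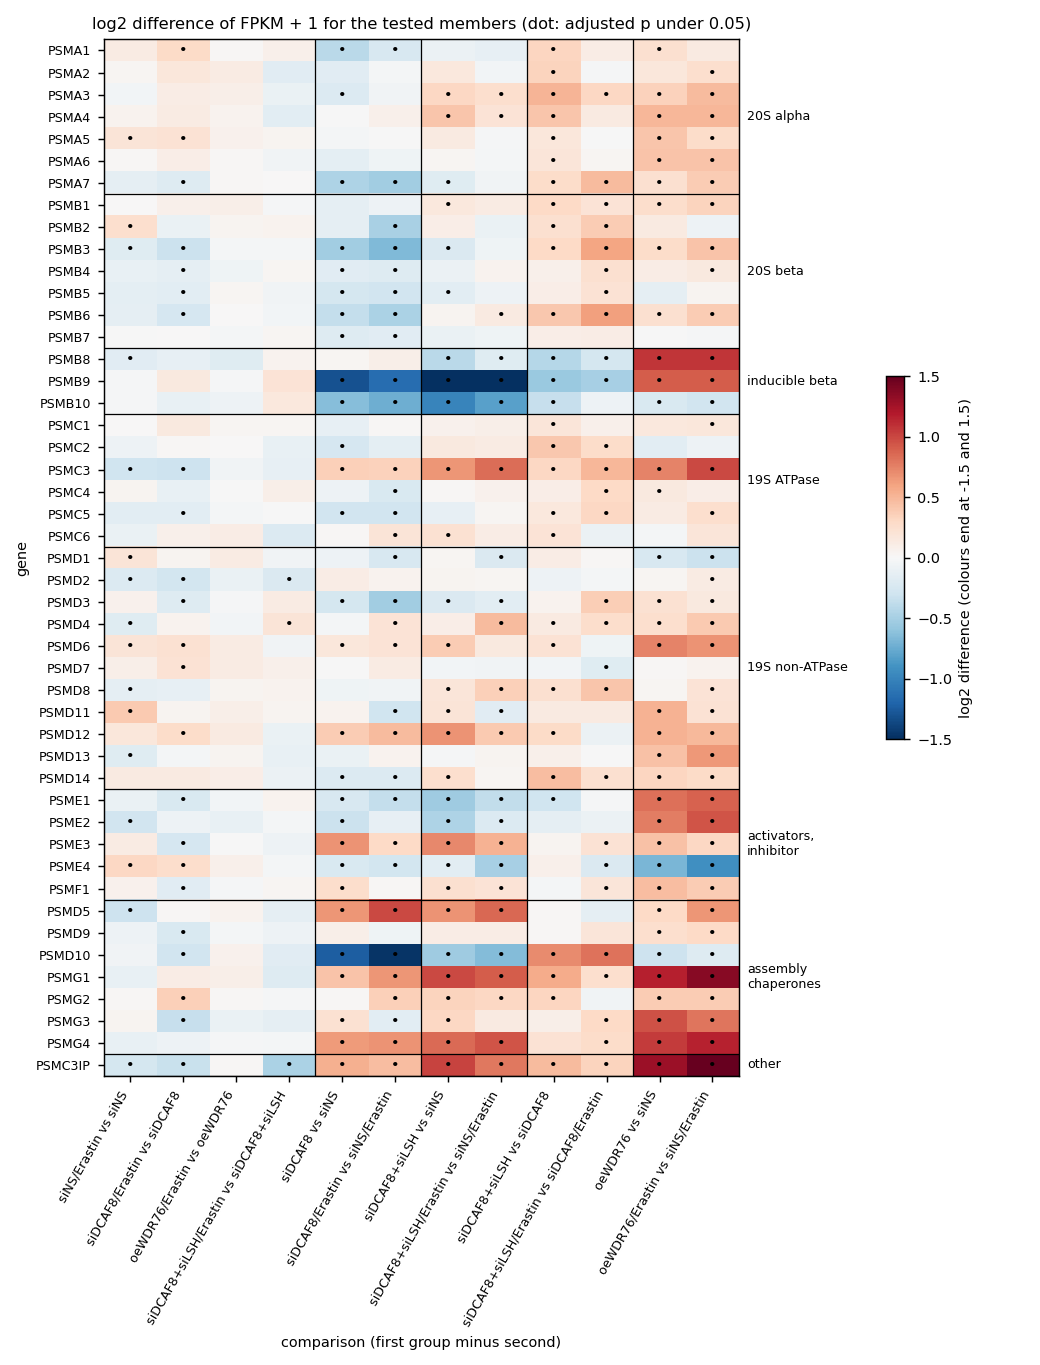
Log2 difference of FPKM + 1 for the 47 tested members (rows, grouped by role) in 12 comparisons (columns, first group minus second), with colours ending at -1.5 and 1.5 and dots marking an adjusted p under 0.05. The comparisons between genotypes hold the deepest colours, in the rows of PSMB9, PSMB8, PSMD10, PSMG1, PSMG4, PSMC3 and PSMC3IP among others, and the 4 erastin columns at the left are pale, with no change past 0.48 in size.

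The inducible beta subunits separated the genotypes. PSMB9, the inducible counterpart of PSMB6, stood at 4.57 and 5.04 FPKM in siDCAF8+siLSH, 7.02 and 8.06 FPKM in siDCAF8 and 38.0 and 39.1 FPKM in oeWDR76, against 20.1 and 20.2 FPKM in siNS. The 4 genotypes did not overlap and kept the same order under erastin, with 5.49 and 5.94 FPKM, 8.44 and 8.46 FPKM, and 38.9 and 37.0 FPKM against 18.7 and 21.1 FPKM in siNS/Erastin. PSMB9 was 3.64-fold lower in siDCAF8+siLSH than in siNS (log2 difference -1.86, SE 0.07, adjusted p = 7.1e-12, limma with Benjamini-Hochberg adjustment over 11260 genes) and 2.48-fold lower in siDCAF8 (log2 difference -1.31, adjusted p = 5.2e-10). It was 1.87-fold higher in oeWDR76 than in siNS (log2 difference 0.91, adjusted p = 9.7e-09). Between the depleted groups it was 1.47-fold lower in siDCAF8+siLSH than in siDCAF8 (adjusted p = 1.8e-05). Folds here and below are on the scale of FPKM plus 1.

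PSMB8, the inducible counterpart of PSMB5, followed PSMB9 only in part. It stood at 31.0 and 30.6 FPKM in siDCAF8+siLSH, 44.4 and 39.4 FPKM in siDCAF8 and 90.9 and 83.9 FPKM in oeWDR76, against 40.6 and 41.2 FPKM in siNS. The siDCAF8 libraries lay on both sides of siNS (log2 difference 0.03, SE 0.06), so no difference was detected there. PSMB8 was 1.32-fold lower in siDCAF8+siLSH than in siNS (log2 difference -0.40, adjusted p = 1.9e-05) and 2.11-fold higher in oeWDR76 (log2 difference 1.08, adjusted p = 1.0e-10), both in limma. PSMB10, the inducible counterpart of PSMB7, stood at 16.2 and 17.3 FPKM in siDCAF8+siLSH, 20.1 and 23.1 FPKM in siDCAF8 and 29.1 and 28.8 FPKM in oeWDR76, against 32.7 and 35.8 FPKM in siNS. Its siNS values were the highest of the 4 genotypes, unlike those of PSMB8 and PSMB9. PSMB10 was 1.99-fold lower in siDCAF8+siLSH (log2 difference -0.99, adjusted p = 3.7e-09) and 1.56-fold lower in siDCAF8 (log2 difference -0.64, adjusted p = 7.6e-07). It was also 1.18-fold lower in oeWDR76 than in siNS (adjusted p = 0.0065, limma), a call that was lost without siNS replicate 2 (adjusted p = 0.086). In the deposited table PSMB8 and PSMB9 are placed on alternate contigs of chromosome 6. In the annotation searched for overlaps, their exons overlap each other and PSMB8-AS1, which lies on the strand opposite PSMB8 and the same as PSMB9. Their RefSeq spans, chr6:32840717-32844679 for PSMB8 and chr6:32854192-32859851 for PSMB9, do not overlap. The library kit is not stated to mark strand, so reads from these overlaps cannot be told apart.

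**Figure D2:**
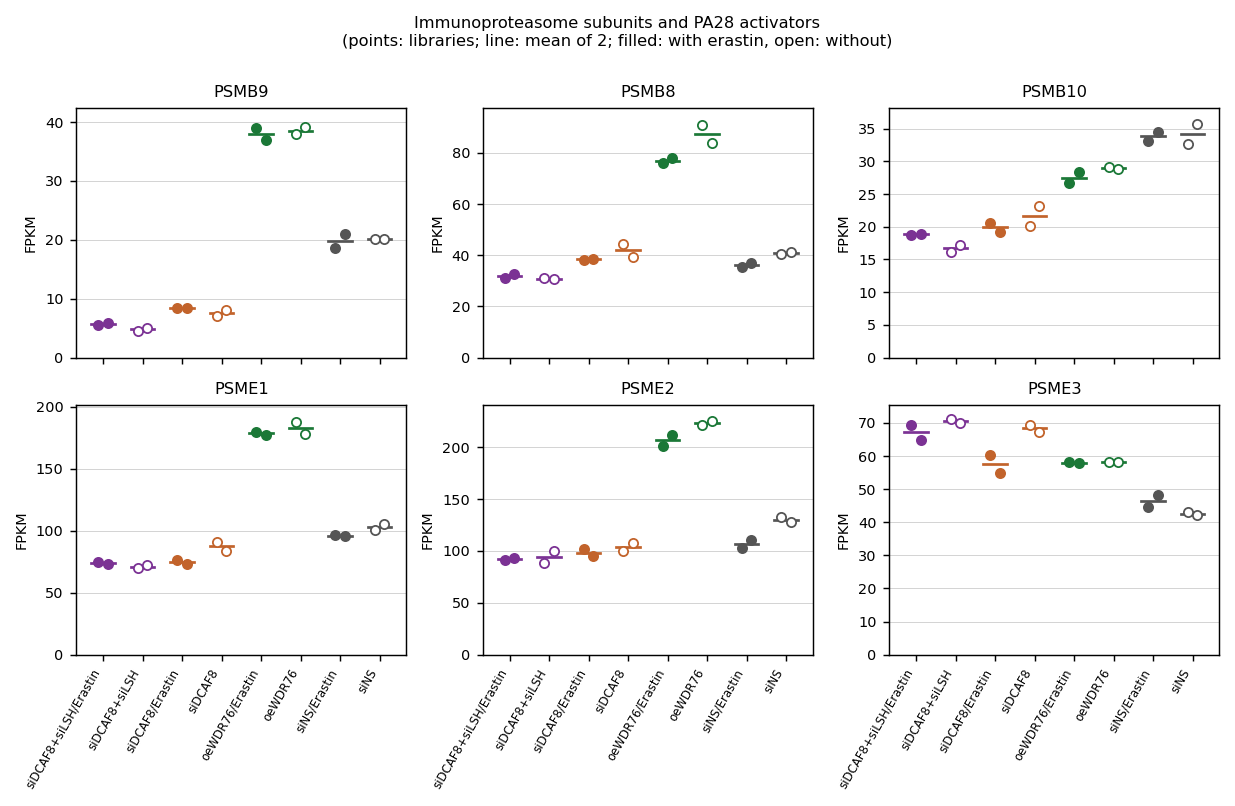
FPKM of 3 inducible beta subunits and 3 activator subunits in each library (points, filled with erastin and open without) with the mean of 2 libraries as a line, for 8 groups along the x axis. PSMB9, PSMB8, PSME1 and PSME2 are highest in the oeWDR76 groups and lowest or near lowest in the siDCAF8+siLSH groups, while PSMB10 is highest in siNS and PSME3 lowest in siNS.

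Set against the subunits they replace within the same library, the inducible subunits also separated the genotypes. The constitutive partners varied less. PSMB6 stood at 123 and 134 FPKM in siDCAF8+siLSH, 96.4 and 97.6 FPKM in siDCAF8 and 148 and 147 FPKM in oeWDR76, against 123 and 126 FPKM in siNS. PSMB5 stood at 160 and 186 FPKM, 155 and 166 FPKM, and 175 and 178 FPKM in these groups, against 192 and 195 FPKM in siNS. PSMB7 stood at 216 and 250 FPKM, 214 and 221 FPKM, and 244 and 253 FPKM, against 246 and 252 FPKM in siNS, with siDCAF8 the lowest and the other groups overlapping siNS. The ratio of PSMB9 to PSMB6 was 0.0372 and 0.0376 in siDCAF8+siLSH, 0.0728 and 0.0826 in siDCAF8 and 0.257 and 0.266 in oeWDR76, against 0.163 and 0.160 in siNS. The ratio of PSMB8 to PSMB5 was 0.193 and 0.164 in siDCAF8+siLSH, 0.287 and 0.237 in siDCAF8 and 0.521 and 0.473 in oeWDR76, against 0.212 and 0.212 in siNS. Here both siDCAF8 libraries were above siNS, and PSMB5 was 1.20-fold lower in siDCAF8 (log2 difference -0.27, adjusted p = 0.0012, limma). The ratio of PSMB10 to PSMB7 was 0.0749 and 0.0690 in siDCAF8+siLSH, 0.0937 and 0.105 in siDCAF8 and 0.119 and 0.114 in oeWDR76, against 0.133 and 0.142 in siNS. In RNA of whole cultures, a change in the share of cells that express a subunit and a change of its level in every cell cannot be told apart.

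**Figure D3:**
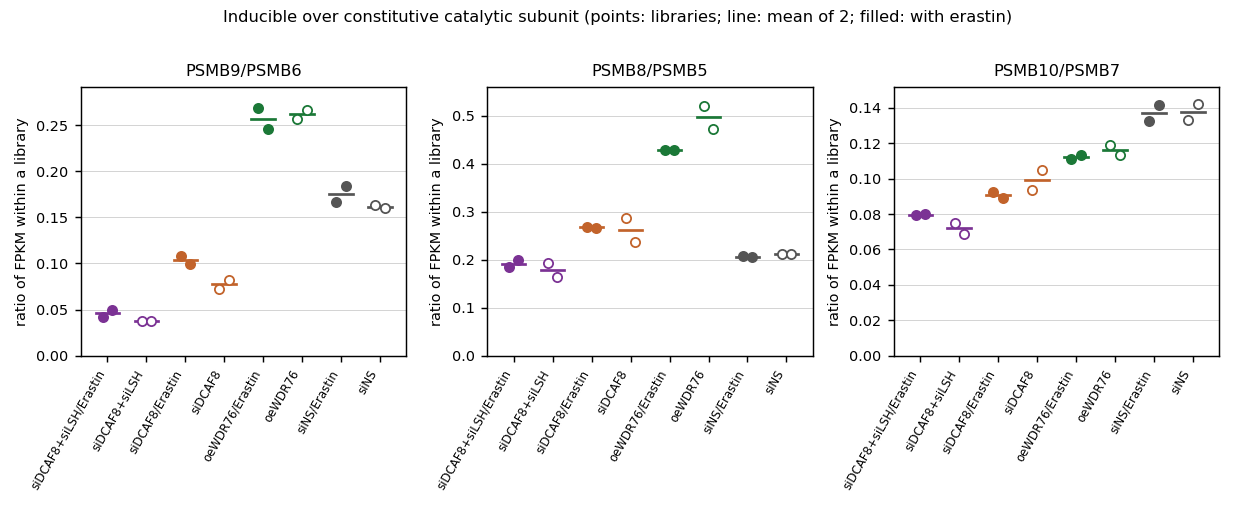
Ratio of the FPKM of each inducible catalytic subunit to that of the constitutive subunit it replaces, within each library (points, filled with erastin) and as the mean of 2 libraries (line), for 8 groups along the x axis. PSMB9/PSMB6 runs from a mean of 0.0374 in siDCAF8+siLSH to 0.262 in oeWDR76, and PSMB8/PSMB5 in oeWDR76 is above all other groups.

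The activators moved in opposite directions. PSME1 and PSME2 encode the subunits of the interferon-inducible cytoplasmic activator PA28, and their promoters both hold the response element letters printed above. PSME1 stood at 70.1 and 72.0 FPKM in siDCAF8+siLSH, 90.9 and 83.7 FPKM in siDCAF8 and 188 and 178 FPKM in oeWDR76, against 101 and 106 FPKM in siNS. PSME2 stood at 88.4 and 100 FPKM in siDCAF8+siLSH, 100 and 107 FPKM in siDCAF8 and 221 and 225 FPKM in oeWDR76, against 132 and 128 FPKM in siNS. For both genes siNS lay above the depleted groups and below oeWDR76, with no overlap. PSME1 fell by 0.53 and 0.24 on the log2 scale in siDCAF8+siLSH and siDCAF8 and rose by 0.82 in oeWDR76, all against siNS. PSME2 fell by 0.46 and 0.33 in the same depleted groups and rose by 0.77 in oeWDR76, and the highest adjusted p of these 6 limma tests was 0.00096.

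PSME3 encodes the nuclear activator PA28 gamma, which is not part of the interferon-induced set. It stood at 71.2 and 70.1 FPKM in siDCAF8+siLSH, 69.4 and 67.3 FPKM in siDCAF8 and 58.2 and 58.2 FPKM in oeWDR76, against 43.2 and 42.1 FPKM in siNS. All 3 genotypes were above siNS, by log2 differences of 0.72, 0.67 and 0.44. PSME4 encodes PA200, a single-chain nuclear activator, and stood at 29.2 and 28.1 FPKM in siDCAF8+siLSH, 26.8 and 27.4 FPKM in siDCAF8 and 19.9 and 19.1 FPKM in oeWDR76, against 33.0 and 30.9 FPKM in siNS. Its fall in oeWDR76 was 1.61-fold (log2 difference -0.68, adjusted p = 2.5e-08, limma). Its fall in siDCAF8+siLSH (log2 difference -0.15) was lost without siNS replicate 1 or siDCAF8+siLSH replicate 2 (adjusted p = 0.22 and 0.16). The proteasome inhibitor gene PSMF1 was low in every group, between 8.04 and 12.04 FPKM, and was higher than siNS in all 3 genotypes, by 0.24 log2 in siDCAF8+siLSH, 0.27 in siDCAF8 and 0.47 in oeWDR76.

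The assembly chaperones held the other large differences. PSMG1 and PSMG2 form one chaperone of the alpha ring, PAC1-PAC2, and PSMG3 and PSMG4 form another, PAC3-PAC4. PSMG1 stood at 55.0 and 62.7 FPKM in siDCAF8+siLSH, 39.2 and 40.1 FPKM in siDCAF8 and 63.1 and 69.9 FPKM in oeWDR76, against 29.4 and 28.7 FPKM in siNS. It was 1.99-fold, 1.35-fold and 2.24-fold higher than in siNS (log2 differences 0.99, 0.43 and 1.17). PSMG4 stood at 27.3 and 26.4 FPKM in siDCAF8+siLSH, 21.2 and 24.9 FPKM in siDCAF8 and 28.5 and 33.7 FPKM in oeWDR76, against 13.8 and 15.1 FPKM in siNS. It was 1.81-fold, 1.55-fold and 2.07-fold higher. For both genes every library of the 3 genotypes was above both siNS libraries, and the highest adjusted p of these 6 limma tests was 0.00019. Their partners moved less: PSMG2 differed from siNS by 0.34 log2 in siDCAF8+siLSH, 0.02 in siDCAF8 and 0.38 in oeWDR76, and PSMG3 by 0.31, 0.23 and 0.95.

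The cap chaperones PSMD5 and PSMD10 went apart. Both escort ATPase subunits during building of the cap base and leave before it is complete. PSMD10, also named gankyrin, stood at 22.1 and 27.7 FPKM in siDCAF8+siLSH, 14.0 and 15.6 FPKM in siDCAF8 and 29.2 and 28.9 FPKM in oeWDR76, against 35.6 and 36.8 FPKM in siNS. The siDCAF8 libraries were the lowest and siNS the highest, with no overlap between genotypes. PSMD10 was 2.36-fold lower in siDCAF8 than in siNS (log2 difference -1.24, SE 0.08, adjusted p = 2.9e-09) and 1.44-fold lower in siDCAF8+siLSH (adjusted p = 2.5e-05). It was 1.63-fold higher in siDCAF8+siLSH than in siDCAF8 (log2 difference 0.71, adjusted p = 4.7e-06), whereas PSMB9 and PSMB10 were lower there. Under erastin the same contrast gave 21.2 and 22.5 FPKM in siDCAF8+siLSH/Erastin against 11.5 and 12.4 FPKM in siDCAF8/Erastin (log2 difference 0.82). PSMD5 stood at 22.1 and 22.9 FPKM in siDCAF8+siLSH, 20.9 and 23.4 FPKM in siDCAF8 and 17.1 and 16.9 FPKM in oeWDR76, against 13.9 and 13.4 FPKM in siNS. It was 1.60-fold, 1.58-fold and 1.23-fold higher than in siNS. The third chaperone of this kind, PSMD9, stayed between 18.0 and 25.8 FPKM, and its difference from siNS was 0.11 log2 in siDCAF8+siLSH, 0.09 in siDCAF8 and 0.25 in oeWDR76. PSMD10 has 3 pseudogenes named after it in the annotation, and no source used here states how shared reads were treated.

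**Figure D4:**
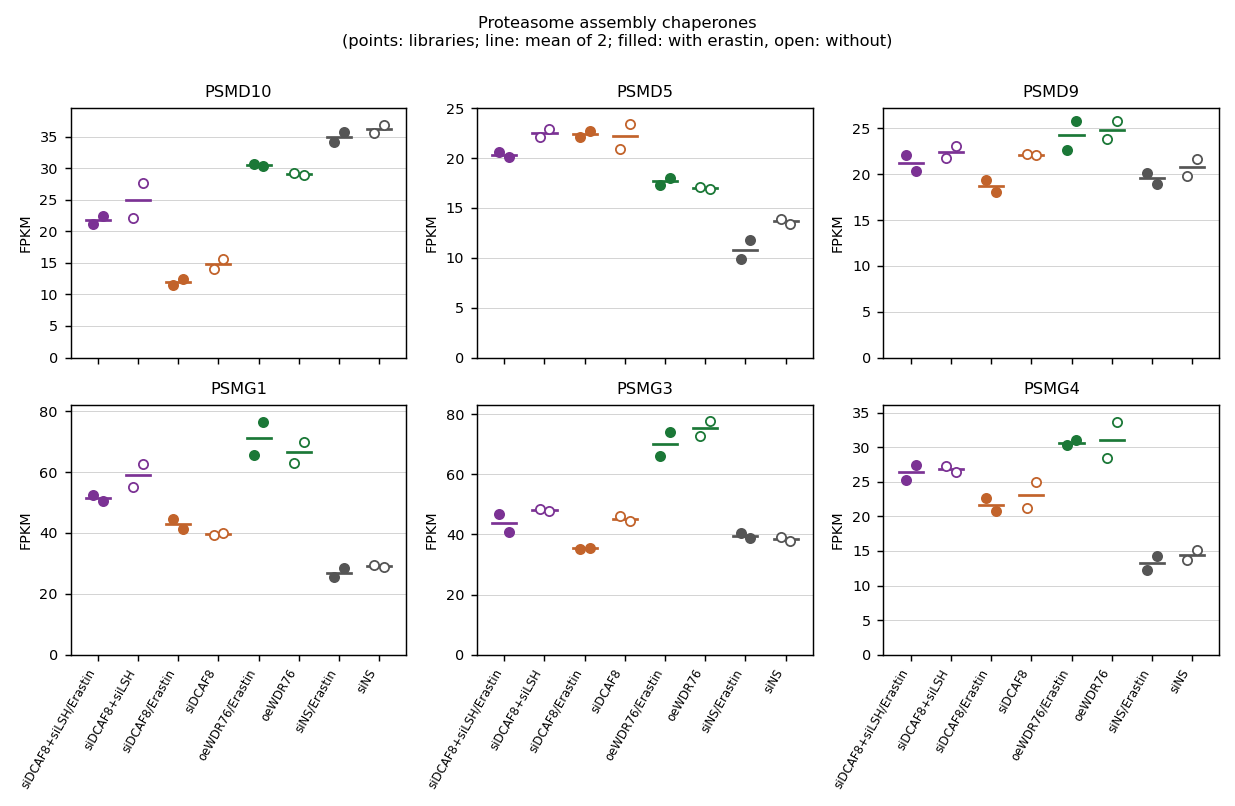
FPKM of 6 assembly chaperone genes in each library (points, filled with erastin and open without) with the mean of 2 libraries as a line, for 8 groups along the x axis. PSMD10 is lowest in the siDCAF8 groups, PSMD5, PSMG1 and PSMG4 are lowest in the siNS groups, and PSMG3 is highest in the oeWDR76 groups.

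Counted over all roles, more members were lower than higher after DCAF8 depletion. In siDCAF8 against siNS, 28 of 47 members passed an adjusted p under 0.05 in limma, 10 higher and 18 lower, where 61.0% of all tested genes passed, 31.0% higher and 29.9% lower. The share of members is near that background, and the median log2 difference was -0.10 over members and 0.01 over all genes. The split was 13 higher and 15 lower once GC content and length were corrected for. Of the 31 constitutive subunits of core and cap 12 fell, none by more than 0.52 log2, and 3 rose. In the beta ring 5 of 7 constitutive genes fell and none rose, led by PSMB3, a non-catalytic subunit, at 124 and 134 FPKM against 186 and 185 FPKM in siNS (log2 difference -0.52, adjusted p = 5.8e-07). In the alpha ring 3 of 7 fell, led by PSMA7 at 145 and 160 FPKM against 207 and 211 FPKM (log2 difference -0.46, adjusted p = 2.7e-06). The summed level of the 8 alpha genes was 657 and 728 FPKM in siDCAF8, against 837 and 801 FPKM in siNS. The ATPase PSMC3 went the other way, at 86.1 and 92.7 FPKM against 69.0 and 70.1 FPKM (log2 difference 0.36, adjusted p = 0.0001). Under erastin the same contrast called 31 members, 11 higher and 20 lower, where 64.8% of genes passed, 34.8% higher and 30.0% lower. Of the 28 untreated calls 23 (82.1%) were also called under erastin in the same direction, which is 74.2% of the 31 erastin calls. Over all genes these shares were 74.8% and 70.4%.

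With the LSH siRNA added to DCAF8 depletion, 21 of the 31 constitutive subunits were higher and all 3 inducible beta subunits lower than in siDCAF8 cells. The 2 groups also differed in DCAF8, at 17.4 and 14.3 FPKM in siDCAF8+siLSH and 11.8 and 12.2 FPKM in siDCAF8. Under erastin it was at 14.6 and 17.1 FPKM against 10.8 and 10.3 FPKM. Whether the added siRNA or the DCAF8 level accounts for the differences below was not tested. In siDCAF8+siLSH against siDCAF8, 29 of 47 members passed, 25 higher and 4 lower, where 48.2% of all genes passed, 26.4% higher and 21.7% lower. The median was 0.17 log2 over members and 0.03 over all genes. The 4 lower members were PSMB9, PSMB8, PSMB10 and PSME1 (log2 differences -0.56, -0.43, -0.35 and -0.29). All 7 tested alpha genes were higher, by 0.17 to 0.51, and so were 4 of 7 constitutive beta genes, 5 of 6 ATPases and 5 of 11 other cap subunits, with none lower. The alpha subunit PSMA3 stood at 73.1 and 82.4 FPKM in siDCAF8+siLSH, against 50.9 and 57.6 FPKM in siDCAF8. The split was 19 higher and 6 lower under quantile normalization and 17 higher and 6 lower after the GC and length correction, under which PSMA5, PSMA6 and PSMC6 changed sign. The alpha sums were 809 and 909 FPKM in siDCAF8+siLSH, against 657 and 728 FPKM in siDCAF8. Under erastin 27 members passed, 23 higher and 4 lower, where 49.7% of genes passed (30.4% higher and 19.3% lower), and 17 were higher and 11 lower after the GC and length correction. The 4 lower ones were then PSMB9, PSMB8, PSME4 and the lid subunit PSMD7 (log2 differences -0.49, -0.26, -0.22 and -0.18), while PSMB10 (-0.07) and PSME1 (-0.02) did not pass. The call of PSME4 was lost without siDCAF8/Erastin replicate 2 or siDCAF8+siLSH/Erastin replicate 2 (adjusted p = 0.093 and 0.062). There the alpha sums were 821 and 831 FPKM in siDCAF8+siLSH/Erastin, against 739 and 732 FPKM in siDCAF8/Erastin, and 2 of 7 alpha genes and 6 of 7 constitutive beta genes were higher.

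Against siNS, the difference of siDCAF8+siLSH is by construction that of siDCAF8 plus that between siDCAF8+siLSH and siDCAF8. Of 47 members 29 passed, 18 higher and 11 lower, where 66.8% of all genes passed (35.9% higher and 30.9% lower), with a median of 0.10 log2 over members and 0.03 over all genes. All 5 genes of the immunoproteasome and PA28 fell, and 5 of 7 chaperones rose. The constitutive subunits were split, with 10 of 31 higher and 4 lower. The lid subunit PSMD12 stood at 27.8 and 31.3 FPKM in siDCAF8+siLSH, against 19.2 and 17.3 FPKM in siNS (log2 difference 0.67, adjusted p = 9.8e-07), and PSMC3 at 107 and 115 FPKM against 69.0 and 70.1 FPKM (log2 difference 0.67, adjusted p = 7.9e-08). Under erastin 24 members passed, 14 higher and 10 lower, where 66.0% of genes passed, 39.3% higher and 26.7% lower. Under median-ratio scaling this split was 10 higher and 16 lower, and after the GC and length correction 13 higher and 18 lower. All 5 immunoproteasome and PA28 genes again fell, with log2 differences between -1.63 (PSMB9) and -0.18 (PSMB8). The fall of PSMB8 there was lost without siNS/Erastin replicate 2 or siDCAF8+siLSH/Erastin replicate 1 (adjusted p = 0.089 and 0.10), and that of PSME2 without the same libraries (adjusted p = 0.091 and 0.051). PSME2 had a log2 difference of -0.21 there.

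With WDR76 overexpressed, most members were higher as scaled by the authors. In oeWDR76 against siNS, 35 of 47 passed, 31 higher and 4 lower, where 73.6% of all genes passed, 41.6% higher and 32.0% lower. The median log2 difference was 0.26 over members and 0.07 over all genes. The breadth of this rise depended on scaling, since under quantile normalization 20 were higher and 11 lower (median 0.06), and after the GC and length correction 22 were higher and 16 lower (median 0.04). Of the 35 calls, PSMA7, PSMC4 and PSMD3 changed sign with quantile normalization, and PSMA7, PSMB1, PSMB3, PSMB6, PSMC4, PSMD3 and PSMD4 after the GC and length correction. The median GC content of the members was 49.6%, against 48.7% over all genes tested. Most members with large rises lay above that median, with 58.8% in PSMG3, 57.5% in PSME2, 56.1% in PSMB9 and 55.3% in PSMB8. PSME1 had 53.2% and PSMG4 52.6%. PSMG1, which also rose, had 46.7%, and PSME4, which fell, had 41.5%. The leading changes kept their sign and call under each of these scalings. After the GC and length correction the log2 differences were 0.93 for PSMG1, 0.72 for PSMB8, 0.70 for PSMG4, 0.52 for PSMG3, 0.50 for PSMB9, 0.47 for PSME1, 0.34 for PSME2 and -0.31 for PSME4. Each was smaller in size than as scaled by the authors. PSMB10 was not among the leading changes as scaled by the authors, where its fall was small, and its size depended on scaling, with -0.71 after the correction. Among constitutive subunits the lid subunit PSMD6 stood at 125 and 123 FPKM in oeWDR76, against 75.5 and 72.2 FPKM in siNS (log2 difference 0.74, and 0.54 after the correction). PSMC3 stood at 116 and 119 FPKM against 69.0 and 70.1 FPKM (log2 difference 0.75, and 0.37 after the correction). The highest log2 difference, 1.29, was that of PSMC3IP. PSMC3IP, the gene that is no part of the proteasome, was at 22.1 and 24.1 FPKM, against 9.0 and 8.73 FPKM in siNS. With no empty-vector library, WDR76 and the overexpression procedure cannot be told apart. Under erastin 39 members passed, 35 higher and 4 lower, where 76.2% of genes passed, 45.2% higher and 31.0% lower. Quantile normalization gave 21 higher and 11 lower there, and the GC and length correction 20 higher and 14 lower, with 7 and 11 of the 39 calls changing sign.

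**Figure D5:**
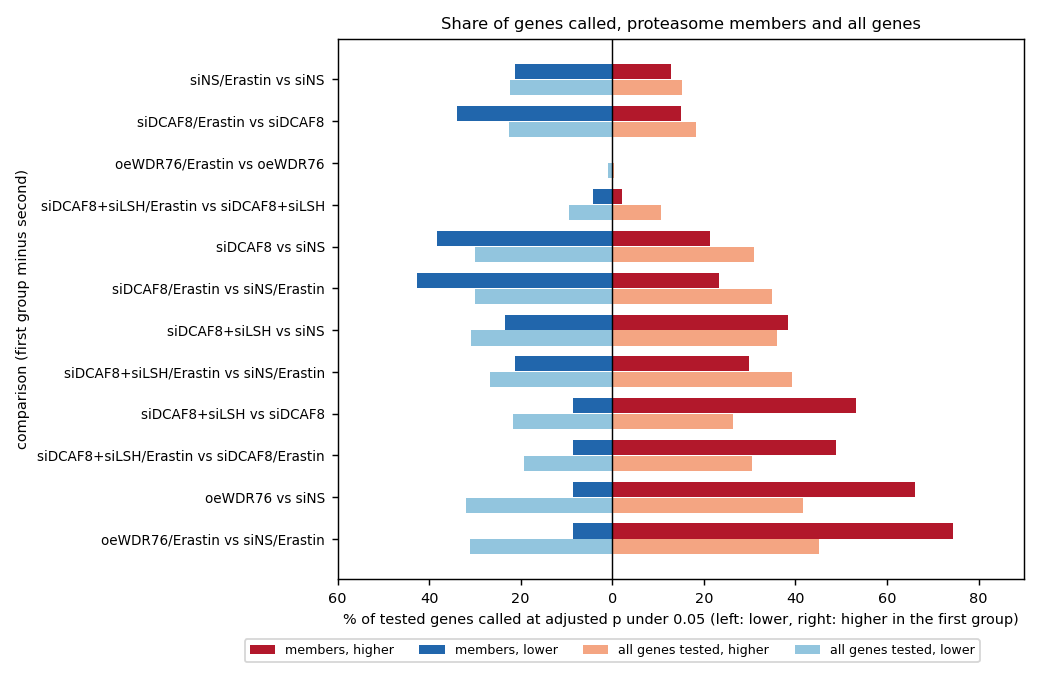
Share of the 47 tested members (dark bars, red higher and blue lower) and of all 11260 genes tested (pale bars) called at an adjusted p under 0.05 in 12 comparisons, with lower calls left of 0 and higher calls right of 0 on the x axis in percent. On the higher side the members exceed all genes in siDCAF8+siLSH against siDCAF8 and in oeWDR76 against siNS, where fewer members are higher under quantile normalization (19 and 20, against 25 and 31 as drawn), and no member is called for erastin in oeWDR76 cells.

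Erastin itself moved the members by less than the leading genotype differences, and in siNS cells the share called was near that of all genes. In siNS/Erastin against siNS, 16 of 47 passed, 6 higher and 10 lower, where 37.5% of all genes passed (15.1% higher and 22.4% lower), and the median was -0.02 log2 over members and -0.03 over all genes. The split was 8 higher and 5 lower under median-ratio scaling and 13 higher and 4 lower after the GC and length correction, and the count fell to between 6 and 9 when any of the 4 libraries compared was left out. The lid subunit PSMD11, whose level is known to limit assembly of the cap with the core, stood at 51.1 and 52.4 FPKM in siNS/Erastin, against 38.9 and 39.7 FPKM in siNS (log2 difference 0.39, adjusted p = 5.6e-05). PSME4 stood at 39.7 and 40.2 FPKM in siNS/Erastin, against 33.0 and 30.9 FPKM in siNS (log2 difference 0.31, adjusted p = 0.00076). PSMC3 was at 55.6 and 57.6 FPKM against 69.0 and 70.1 FPKM (log2 difference -0.29, adjusted p = 0.0015) and PSME2 at 103 and 111 FPKM against 132 and 128 FPKM (log2 difference -0.29, adjusted p = 0.0021). None of these 4 had overlapping groups, which was a condition for naming PSMD11. None of them lost its call when 1 library was left out, but PSMB2, PSMB3, PSMC3IP, PSMD5 and PSMD6, called in the same contrast, did. The chaperone PSMD5 was at 9.92 and 11.7 FPKM in siNS/Erastin, against 13.9 and 13.4 FPKM in siNS. Its log2 difference was -0.20 without siNS/Erastin replicate 1. Of the inducible beta subunits, PSMB8 was at 35.6 and 36.8 FPKM in siNS/Erastin, against 40.6 and 41.2 FPKM in siNS, and passed (log2 difference -0.17, adjusted p = 0.033, limma). That call was lost without any 1 of these 4 libraries (adjusted p between 0.061 and 0.15) and under median-ratio scaling, quantile normalization and the GC and length correction (0.080, 0.088 and 0.30). PSMB9 and PSMB10 had log2 differences of -0.02 each and did not pass.

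In siDCAF8/Erastin against siDCAF8, 23 members passed, 7 higher and 16 lower, where 40.9% of all genes passed, 18.3% higher and 22.5% lower. The split was 11 higher and 14 lower under quantile normalization and 8 higher and 9 lower after the GC and length correction, and 13 to 15 members passed without siDCAF8 replicate 1 or either siDCAF8/Erastin library. PSMG2 stood at 52.6 and 53.2 FPKM in siDCAF8/Erastin, against 39.9 and 42.4 FPKM in siDCAF8 (log2 difference 0.36, adjusted p = 0.0001). PSMG3 stood at 35.1 and 35.6 FPKM against 46.0 and 44.6 FPKM (log2 difference -0.35, adjusted p = 0.00075), so that genes of the 2 alpha-ring chaperones moved in opposite directions. PSMB3 stood at 105 and 102 FPKM against 124 and 134 FPKM (log2 difference -0.32, adjusted p = 0.00032). In siDCAF8+siLSH/Erastin against siDCAF8+siLSH only 3 members passed, where 20.2% of all genes passed (10.6% higher and 9.54% lower), namely the ubiquitin receptor PSMD4 (0.19 log2), the scaffold PSMD2 (-0.22) and PSMC3IP (-0.48). The calls of PSMD4 and PSMD2 were lost when siDCAF8+siLSH/Erastin replicate 1 or 2, in that order, was left out (adjusted p = 0.055 and 0.11). Without siDCAF8+siLSH replicate 1 the count was 9, and after the GC and length correction 1 was higher and 4 lower. In oeWDR76/Erastin against oeWDR76 no member passed in limma, where 1.45% of all genes passed (0.471% higher and 0.977% lower), and 1 had an unadjusted p under 0.05.

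Differences between the erastin responses were tested as interactions. The response of siDCAF8 cells minus that of siNS cells was higher for 3 members and lower for 5, where 20.8% of all genes passed, 11.0% higher and 9.84% lower. For siDCAF8+siLSH minus siNS it was higher for 2 and lower for 2, where 24.8% of genes passed, 15.6% higher and 9.13% lower. For siDCAF8+siLSH minus siDCAF8 it was higher for 3 and lower for 5, where 23.5% of genes passed, 14.2% higher and 9.24% lower. For oeWDR76 minus siNS it was higher for 1 and lower for 1, where 14.1% of genes passed, 9.04% higher and 5.11% lower. Leaving out 1 library gave 4 to 8, 3 to 10, 3 to 13 and 0 to 2 members in the same order. PSMD11 recurred, because its response in siNS exceeded that in siDCAF8+siLSH (difference -0.35, adjusted p = 0.0043), siDCAF8 (-0.35, adjusted p = 0.0055) and oeWDR76 (-0.31, adjusted p = 0.017), 3 tests that share the siNS libraries. The last of these was lost without siNS replicate 1, siNS/Erastin replicate 2, oeWDR76 replicate 2 or oeWDR76/Erastin replicate 1, with adjusted p-values of up to 0.083. PSMD11 was at 47.4 and 44.8 FPKM in siDCAF8+siLSH/Erastin against 44.1 and 45.7 FPKM in siDCAF8+siLSH, at 42.5 and 41.3 FPKM in siDCAF8/Erastin against 39.7 and 42.0 FPKM in siDCAF8, and at 58.8 and 61.9 FPKM in oeWDR76/Erastin against 55.1 and 58.7 FPKM in oeWDR76. PSMG2 responded more in siDCAF8 than in siNS (0.34, adjusted p = 0.0054) and less in siDCAF8+siLSH than in siDCAF8 (-0.37, adjusted p = 0.0054).

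Genes that work beside the proteasome were taken from lists of named factors. Their values and counts are as scaled by the authors. In oeWDR76, where some member calls changed sign after the GC and length correction, no corrected values of these genes are given. Of 14 genes of class I antigen presentation, 12 fell and none rose in siDCAF8+siLSH against siNS, 9 fell and none rose in siDCAF8, and 10 rose and 3 fell in oeWDR76, with medians of -0.58, -0.41 and 0.58 log2. The shares lower were 85.7% and 64.3% in the depleted groups, where 30.9% and 29.9% of all genes were lower, and 71.4% were higher in oeWDR76, where 41.6% of all genes were. HLA-B, a class I heavy chain, stood at 18.7 and 16.7 FPKM in siDCAF8+siLSH, 48.3 and 49.4 FPKM in siDCAF8 and 139 and 129 FPKM in oeWDR76, against 85.8 and 90.3 FPKM in siNS. TAP1, the divergent neighbour of PSMB9, stood at 14.2 and 11.8 FPKM in siDCAF8+siLSH, 20.8 and 19.2 FPKM in siDCAF8 and 61.8 and 55.8 FPKM in oeWDR76, against 23.3 and 24.3 FPKM in siNS. The genotypes thus had the same order for TAP1 as for PSMB9, with a smaller gap between siDCAF8 and siNS. IRF1, a factor that binds the response element, stood at 24.8 and 25.7 FPKM in oeWDR76, against 7.97 and 9.71 FPKM in siNS. It was at 6.07 and 6.42 FPKM in siDCAF8+siLSH. In siDCAF8, where PSMB9 fell, IRF1 was at 8.5 and 8.83 FPKM, between its siNS values. The 3 that fell in oeWDR76 were TAPBP, ERAP1 and ERAP2 (log2 differences -0.16, -1.33 and -0.89).

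Among regulators of proteasome transcription, 7 of 13 fell and 2 rose in siDCAF8+siLSH, 5 fell and 3 rose in siDCAF8, and 5 fell and 3 rose in oeWDR76, each against siNS. The shares lower were 53.8%, 38.5% and 38.5%, where 30.9%, 29.9% and 32.0% of all genes were lower, so those in siDCAF8 and oeWDR76 were near the background. NFE2L1 stood at 74.3 and 69.2 FPKM in siDCAF8+siLSH, 84.0 and 75.9 FPKM in siDCAF8 and 111 and 108 FPKM in oeWDR76, against 109 and 116 FPKM in siNS. It fell by 0.64 and 0.49 log2 in the depleted groups and did not differ detectably in oeWDR76 (log2 difference -0.03). NFE2L2, which drives antioxidant genes, was at 26.3 and 26.5 FPKM in siDCAF8+siLSH and between 26.3 and 33.5 FPKM over all libraries, and fell in siDCAF8+siLSH (log2 difference -0.19, adjusted p = 0.022, limma). POMP, the maturation factor of the core, stood at 90.02 and 103 FPKM in siDCAF8+siLSH, 52.5 and 61.7 FPKM in siDCAF8 and 79.2 and 79.5 FPKM in oeWDR76, against 67.3 and 59.6 FPKM in siNS. It was 0.75 log2 higher in siDCAF8+siLSH than in siDCAF8, above every alpha and beta subunit in that contrast.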

How the data were processed

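Gene expression was measured in 16 libraries of HT-1080 cells, 2 in each of 8 groups. Per the labels' protocols, RNA was extracted with Trizol, amplified with a Smart-seq kit, made into libraries with a NEBNext Ultra DNA kit and sequenced on a BGISEQ500. The authors deposited FPKM values per gene in 1 table, and the submitters' processing notes name StringTie and GRCh38. No source used here gives the aligner, the versions or the gene annotation. The files hold no read counts, so the depth is unknown and no counting interval is given.

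Of 24107 entries, 6555 held no values. Values were taken as log2(FPKM + 1), and a gene was kept where its 16 libraries averaged 1 FPKM or more, which left 11260. One mean for each of the 8 groups was fitted over all these genes with limma 3.58.1 in R 4.3.3, with 8 residual and 8.57 prior degrees of freedom. It gave 12 comparisons of 2 groups and 4 differences between erastin responses, with two-sided p-values adjusted by the Benjamini-Hochberg method within each, and an adjusted p under 0.05 was called. Fold changes on this scale understate changes of low genes. The fit was tested on simulated data. Tables and figures used Python 3.11.15, pandas 2.3.3, numpy 2.4.6 and matplotlib 3.10.9.

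The members and the gene lists were chosen with earlier results of these data known. Values in every library were given for the catalytic subunits, the activators and the widest member of each role, and for each comparison up to 3 called members of each direction could be named. Assembly chaperones and further members outside that rule were chosen after their values were seen, as were the neighbouring genes TAPBP, ERAP1, ERAP2, TAP1 and IRF1. Some results are not reported here. Exons of 19 members overlap a gene on the opposite strand, 12 members have a pseudogene named after them, and PSMB3, PSMB8 and PSMB9 stand on alternate contigs in the table, so their values are less certain. Alternatives were a pseudocount of 0.1, no filter, a minimum of 5 FPKM, median-ratio scaling, quantile normalization, a GC and length correction, fits of only the groups compared, the replicate number as a block and leaving out each library.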

Additional observations from a re-analysis of the deposited data

Results flagged for a closer look

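Some members responded to erastin differently between genotypes, by the interaction term of the limma model at an adjusted p under 0.05. Each value is the log2 response in the first genotype minus that in the second. Between siDCAF8 and siNS the differences were -0.39 for PSMG3, -0.37 for PSME3, -0.35 for PSMD11, -0.35 for PSMB2, -0.26 for PSMD3, 0.23 for PSMD4, 0.33 for PSMD5 and 0.34 for PSMG2. Between siDCAF8+siLSH and siNS they were -0.35 for PSMD11, -0.35 for PSME4, 0.26 for PSME2 and 0.37 for PSMD4. Between siDCAF8+siLSH and siDCAF8 they were -0.38 for PSMD12, -0.37 for PSMG2, -0.34 for PSMA2, -0.30 for PSME4, -0.28 for PSMD6, 0.28 for PSME1, 0.29 for PSMB3 and 0.31 for PSMD3. Between oeWDR76 and siNS they were -0.31 for PSMD11 and 0.37 for PSMD5. The siNS libraries enter 3 of these contrasts and the siDCAF8 and siDCAF8+siLSH libraries enter 2 each. The difference of PSMD5 between oeWDR76 and siNS was lost without any 1 of 7 of their 8 libraries (adjusted p up to 0.12) and kept without siNS/Erastin replicate 2. That of PSMD5 between siDCAF8 and siNS was 0.22 without siNS/Erastin replicate 1 (adjusted p = 0.16). It was also lost without siNS replicate 1, siDCAF8 replicate 1 or either siDCAF8/Erastin library, without a filter, in a fit of only those groups and under the GC and length correction (adjusted p between 0.050 and 0.13). The difference of PSME2 between siDCAF8+siLSH and siNS was lost without siDCAF8+siLSH replicate 1 (adjusted p = 0.16) and in several other settings. That of PSMD4 between siDCAF8 and siNS was lost without siNS replicate 2, siNS/Erastin replicate 1 or siDCAF8/Erastin replicate 1 (0.20 to 0.22). Between siDCAF8+siLSH and siDCAF8, those of PSMA2, PSMB3, PSMD3, PSMD6, PSMD12, PSME1 and PSME4 were each lost without any 1 of several libraries. That of PSMG2 was kept. After correction for GC content and length, 1 of the 8 differences between siDCAF8+siLSH and siDCAF8 was still called.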

How the results depend on the processing

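Over 169 named values of members, other settings left 1282 results with the same direction and call, 63 lost the call and 7 changed sign, and leaving out 1 library left 2556, lost 148 and turned none. In oeWDR76 against siNS, PSMA7 was -0.0071 with quantile normalization, and under the GC and length correction PSMA7 was -0.12, PSMB3 -0.085 and PSMB6 -0.14. In oeWDR76/Erastin against siNS/Erastin that correction gave -0.045 for PSMA7, -0.0026 for PSMB3 and -0.073 for PSMB6. The cause was not tested. Scaling by median ratios moved the median of all genes there to 0.01 log2, against 0.11 as deposited.

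Of the member counts, the erastin response in siDCAF8+siLSH was 3, with 1 in a fit of only those groups and 5 after the GC and length correction. The difference of responses between siDCAF8 and siNS was 8, with 5 without a filter, and between oeWDR76 and siNS 2, with 1 without a filter. Between siDCAF8+siLSH and siNS it was 4, with 7 under median-ratio scaling and 7 after the correction. Between siDCAF8+siLSH and siDCAF8 it was 8, with 5 without a filter, 13 with quantile normalization, 3 in a fit of only those groups and 1 after the correction. Leaving out each library in turn gave 6 to 18 members for erastin in siNS, 13 to 24 in siDCAF8, 2 to 9 in siDCAF8+siLSH and 0 to 0 in oeWDR76. It gave 25 to 32 for siDCAF8+siLSH, 23 to 31 for siDCAF8 and 32 to 41 for oeWDR76 against siNS, and 20 to 33 for siDCAF8+siLSH against siDCAF8. Under erastin these were 20 to 25, 27 to 31, 34 to 40 and 18 to 28. The differences of responses gave 4 to 8 for siDCAF8, 0 to 2 for oeWDR76 and 3 to 10 for siDCAF8+siLSH against siNS, and 3 to 13 for siDCAF8+siLSH against siDCAF8. The highest counts of the last pair, 10 and 13, came without siDCAF8+siLSH replicate 1.

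No label says what the replicate numbers share. Deviations of same-numbered libraries correlated between -0.21 and 0.39 over 28 pairs of groups, so not every pair passed 0.1, and the libraries were not treated as paired. With the replicate number as a block, the counts were 18 for erastin in siNS, 24 in siDCAF8, 0 in oeWDR76 and 4 in siDCAF8+siLSH, then 31 for siDCAF8, 40 for oeWDR76 and 31 for siDCAF8+siLSH against siNS and 30 for siDCAF8+siLSH against siDCAF8. Under erastin they were 30, 39, 24 and 27, and for the differences of responses 9, 2, 4 and 12. No named call was lost under the block.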

Other observations

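Some factors that bind the proteasome differed between the genotypes as scaled by the authors. No values after the GC and length correction are given for the lists of this section. USP14, a deubiquitinase bound to the cap, averaged 26.6 ± 0.57 FPKM in siDCAF8+siLSH, 21.4 ± 0.57 FPKM in siDCAF8 and 18.98 ± 0.36 FPKM in oeWDR76, against 16.5 ± 0.13 FPKM in siNS (SD, n = 2 each). It was higher than siNS in all 3 (log2 differences 0.66, 0.35 and 0.19). The ubiquitin receptor ADRM1 averaged 130 ± 9.1 FPKM in siDCAF8+siLSH, 118 ± 1.5 FPKM in siDCAF8 and 170 ± 9.4 FPKM in oeWDR76, against 117 ± 5.8 FPKM in siNS, and its largest log2 difference was 0.54 in oeWDR76. Of 12 such factors 6 rose and 3 fell in siDCAF8+siLSH, 4 rose and 3 fell in siDCAF8, and 7 rose and 3 fell in oeWDR76. The shares higher were 50%, 33.3% and 58.3%, where 35.9%, 31.0% and 41.6% of all genes were higher, and 25.0% were lower in each, where 30.9%, 29.9% and 32.0% of all genes were.

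Among 12 genes of shuttle factors and the segregase, 7 rose in each genotype against siNS and 2, 1 and 2 fell in siDCAF8+siLSH, siDCAF8 and oeWDR76. The share higher was 58.3% in each, beside the same 35.9%, 31.0% and 41.6% of all genes. Of 6 genes of ubiquitin and its activating enzymes, 1 fell in siDCAF8+siLSH and 2 in siDCAF8 with none higher, and 2 rose and 1 fell in oeWDR76. The shares lower were 16.7%, 33.3% and 16.7%, beside 30.9%, 29.9% and 32.0% of all genes.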
